A study of Arabidopsis thaliana with 74 samples.

Results

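FWA (AT4G25530) and ROS1 (AT2G36490) are 2 Arabidopsis thaliana genes whose expression is tied to methylated repeat or transposon sequence around their transcription starts. They were taken by gene identity, with no threshold on a measured value, out of 37863 annotated genes with at least 1 small RNA (sRNA) count in the deposited tables. Each gene was followed through a fixed interval, chr4:13036000-13044000 for FWA and chr2:15306000-15318000 for ROS1 (TAIR10 coordinates). The sRNA reads of 74 libraries had been counted in windows of 200 bp placed every 50 bp, 157 of which lay in the FWA interval and 237 in the ROS1 interval in the table of CHH windows (H stands for any base but G). There were 36 paternal epiRILs, 36 epiHybrids and 2 msCol maternal libraries, each from pooled aerial rosettes harvested 27 days after sowing. An epiRIL is an inbred line that descends from a cross of Col-wt with a ddm1-2 mutant, carries a wild-type DDM1 gene and keeps a mosaic of regions that lost methylation in the mutant. msCol is a male-sterile ms1 line in the Columbia background that carries a Landsberg (Ler) segment around MS1 on chromosome 5, and its libraries came from the sibling plants msCol 12 and msCol 16. An epiHybrid is the F1 of msCol with the epiRIL of the same family number, so that it received 1 of its chromosome sets from each parent. The 36 families had been selected in the study for their leaf area performance, and the maternal msCol plant of each family is not given in the sources used here.

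FWA encodes a homeodomain transcription factor that delays flowering when it is expressed in the plant body. In wild-type rosettes it is silenced by DNA methylation of tandem repeats at its start, and those repeats are a source of the sRNAs that guide RNA-directed DNA methylation (RdDM). ROS1 encodes a DNA glycosylase that removes methylated cytosine, and its promoter holds a short sequence beside a transposon where RdDM raises ROS1 transcription. The counts described here are sRNA reads over the DNA of each locus and measure neither the mRNA of the gene nor its methylation.

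The stretches from which the sRNAs came, or beside which they varied, are shown first. The first holds the bases just upstream of the annotated FWA start (chr4:13038160-13038359, plus strand), with the copies of a short direct repeat in capitals. The second is the 200-bp window in intron 2 of FWA (chr4:13038751-13038950, plus strand) where the spread of the epiRILs relative to their mean was highest among the windows whose mean reached 20 counts, with CG sites in capitals. The third holds the bases just upstream of the annotated ROS1 start (chr2:15314808-15315007, minus strand), with CG sites in capitals. All were read from the RefSeq TAIR10.1 assembly.
FWA upstream: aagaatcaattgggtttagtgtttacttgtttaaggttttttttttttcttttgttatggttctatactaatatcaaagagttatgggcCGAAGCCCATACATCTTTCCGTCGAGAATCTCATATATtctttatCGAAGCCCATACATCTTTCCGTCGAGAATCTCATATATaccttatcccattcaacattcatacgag
FWA intron 2: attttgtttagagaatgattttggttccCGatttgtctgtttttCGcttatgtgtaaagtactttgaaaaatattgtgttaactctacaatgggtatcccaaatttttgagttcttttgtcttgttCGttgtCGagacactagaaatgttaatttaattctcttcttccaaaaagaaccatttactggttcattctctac
ROS1 upstream: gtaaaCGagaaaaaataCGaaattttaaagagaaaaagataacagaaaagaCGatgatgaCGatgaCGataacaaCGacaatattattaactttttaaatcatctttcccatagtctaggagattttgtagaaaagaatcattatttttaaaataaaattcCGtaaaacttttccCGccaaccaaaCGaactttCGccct

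The FWA stretch held 7 CG sites, the intron 2 window 4 and the ROS1 stretch 10. Counted over both strands, their cytosines were mostly in the CHH context, with 51, 50 and 35 respectively. The short FWA repeat was 38 bases long, and its copies were 45 bases apart and identical. A search for ungapped direct repeats of at least 30 bases across the sRNA-bearing part of FWA also found a longer pair. Its first part matched at 119 of 124 bases between chr4:13038335-13038458 and chr4:13038546-13038669, and its second part at 73 of 77 bases between chr4:13038456-13038532 and chr4:13038666-13038742. These copies cover the gene start, exon 1, intron 1, exon 2 and the beginning of intron 2. The variable intron 2 window begins 8 bases after the last copy ends.

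Every library was of similar depth, with 20995764 to 27084303 counts over the non-overlapping CHH windows. Values are given as normalised counts, that is the count divided by the effective library size (total times TMM factor) relative to the geometric mean of the 74 libraries, so that they stay on the scale of a read count. The TMM factors ran from 0.818 to 1.17 in the epiHybrids and from 0.862 to 1.12 in the epiRILs, while msCol 12 had 1.09 and msCol 16 had 0.733, below every other library. All 8 rosette miRNA genes checked (such as MIR166A and MIR168A) had reads in every library. Over the 334 windows within 1 Mb of MS1 that had fewer counts in msCol than in the epiRILs, the epiHybrid lay below its epiRIL in all 34 families other than 12 and 568. The order was turned in family 568, where the library labelled epiHybrid stood at 1.26 and the library labelled epiRIL at 0.84 on a scale with msCol at 0 and the median epiRIL at 1. In family 12 these were 0.81 and 0.86. Both families were therefore also left out as an alternative.

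**Figure D1:**
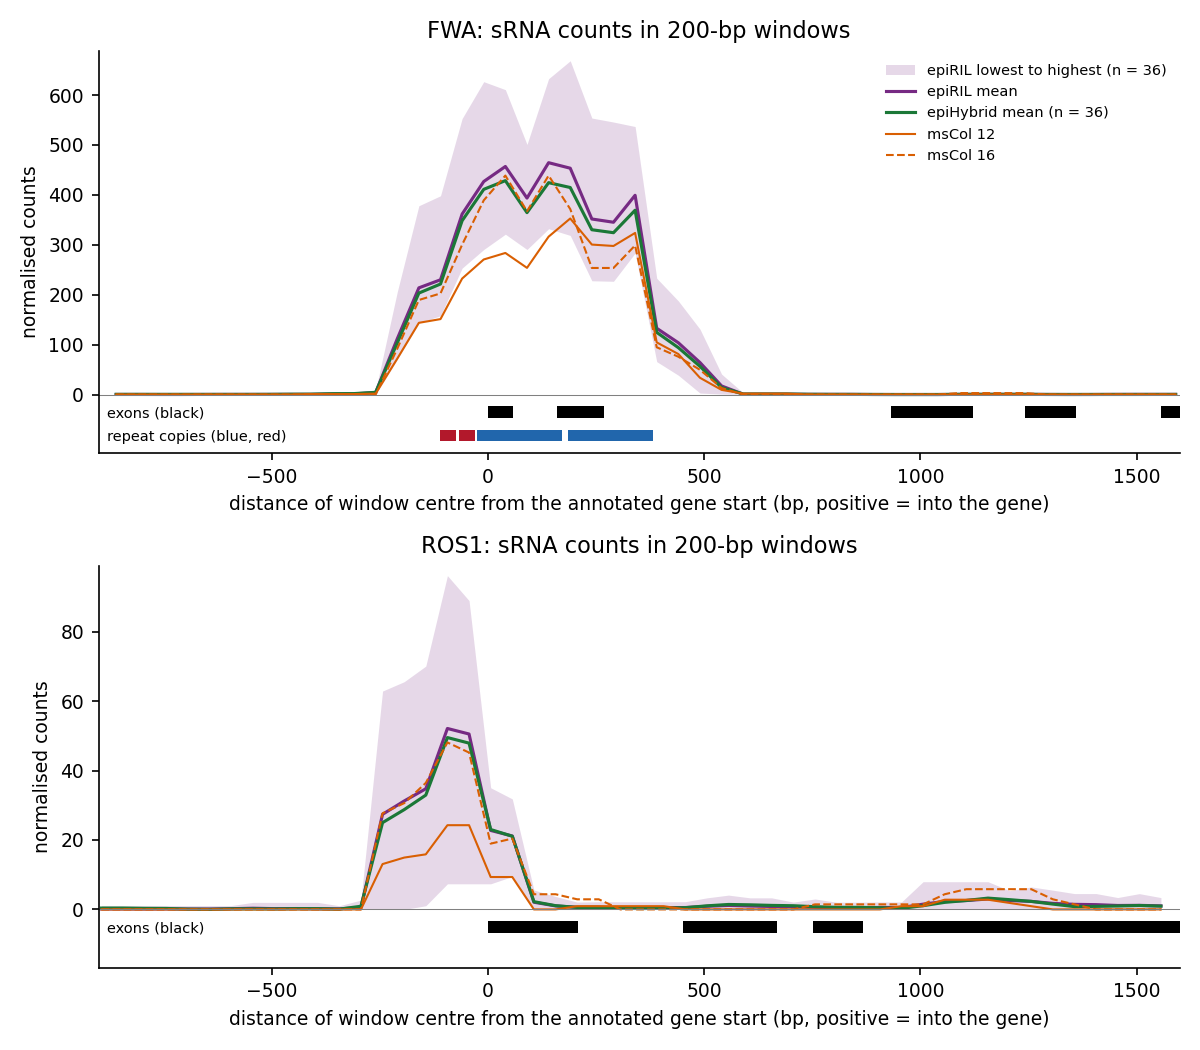
Mean normalised sRNA counts in 200-bp windows against the distance of the window centre from the annotated start of FWA (top) and ROS1 (bottom), for 36 epiRILs, 36 epiHybrids and each msCol library, with the range of the epiRILs shaded. FWA counts stand over the repeat copies and fall off in intron 2, and ROS1 counts peak just upstream of the gene.

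At FWA, sRNAs formed a single block over the repeats, and no library lacked it. The block, a run of windows whose mean reached 2 counts, ran from chr4:13038001 to chr4:13039000 and held 99.4% of the counts of the interval. The windows of the interval that did not overlap it had means of at most 0.878 counts, those over the neighbouring genes SLK1 and MSH3 included. Of the 977 sequences of 24 bases in the block, 87.3% occur at a single place in the genome and 12.7% only within the block, so that exact 24-base reads could be shared between the repeat copies and matched no other locus. Shorter or mismatched reads were not checked. The highest window (chr4:13038401-13038600), which spans parts of exon 1, intron 1 and exon 2, had a mean of 444.3 raw counts.

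Over the whole block the epiRILs carried more sRNA than msCol on average, and the epiHybrid mean lay between theirs. By family, however, the epiHybrid lay between its epiRIL and the msCol mean in only 19 of 36. The epiRIL libraries held 997 to 1729 normalised counts with a median of 1244. The epiHybrid libraries held 935 to 1471 with a median of 1166. msCol 12 held 884 and msCol 16 held 1051. Thus 30 of 36 epiRILs and 29 of 36 epiHybrids lay above both msCol libraries, and none lay below both. The means were 1246 ± 171 (SD, n = 36) for the epiRILs, 1160 ± 137 (SD, n = 36) for the epiHybrids and 967 ± 118 (SD, n = 2) for msCol.

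The epiRIL mean exceeded the msCol mean by 279 counts, or 1.29-fold, with p = 0.0199 in a two-sided exact permutation test over 38 libraries, for which 0.00284 is the smallest p possible. In the edgeR quasi-likelihood fit over all genes, the FWA feature (gene with 1000 bp on each side) was higher in epiRILs by 0.45 ± 0.14 (SE) on the log2 scale with an adjusted p of 0.0347, where 3.23% of 36702 genes were called higher. The same gene-level call was lost (adjusted p 0.0516 to 0.271) without families 12 and 568, with either msCol library left out, without the filter on low counts, with shifted windows and in the CG and CHG tables, while the difference stayed between 0.39 and 0.49. With a single msCol library left, its spread is assumed to be that of the other groups. DESeq2 gave an adjusted p of 0.0147. With 2 msCol siblings, the maternal value rests on few plants.

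The epiHybrids had fewer FWA sRNA counts than their own epiRILs, by 86.0 ± 28.2 counts (SE, n = 36 families), with 22 of 36 families lower (p = 0.0045, sign-flip permutation test over families, two-sided). Relative to the mid-parent value (MPV, the mean of the epiRIL and the msCol mean) they were higher by 53.6 ± 21.4 counts in 22 of 36 families (p = 0.0171, same test). The SE and p of this excess treat the msCol mean as known, although msCol 12 held 884 counts and msCol 16 held 1051. Both differences were among 6 tests on the FWA and ROS1 blocks. The same comparisons were also tested for the intervals and for single windows, and the p-values are unadjusted. In the fit over all genes, neither difference at the FWA feature passed the threshold, which 8.08% of genes passed for epiHybrid against epiRIL and 4.15% for epiHybrid against MPV: epiHybrids differed from epiRILs by -0.10 on the log2 scale (95% interval -0.17 to -0.03, adjusted p 0.103) and from the MPV by 0.13 (-0.02 to 0.27, adjusted p 0.398). With library sizes alone in place of TMM factors the epiHybrid minus epiRIL difference was -42.3 counts (p = 0.261, permutation test) and the excess over MPV 139.9 (p = 2e-05, permutation test). The excess was 11.9 without msCol 12 (p = 0.584, permutation test) and 95.4 without msCol 16 (p = 6e-05, permutation test).

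No single FWA window was called in the fit over all windows. Of the 5 non-overlapping FWA windows tested by edgeR, 0 passed an adjusted p of 0.05 in any of the comparisons, where 8.02% of all windows passed for epiHybrid against epiRIL, 1.92% for epiRIL against msCol and 1.08% for epiHybrid against MPV. At an unadjusted p under 0.05 the counts were 1, 3 and 1 of these 5 windows. By the sign-flip test on the counts of a window alone, which treats the msCol mean as known and is unadjusted, the epiHybrids exceeded the MPV in both of the most upstream windows. The excess at chr4:13038201-13038400 was 34.3 ± 6.84 (SE) counts in 29 of 36 families (p = 2e-05, the smallest that this permutation test can give). It was 17.4 without msCol 12 (p = 0.0153, permutation test), 51.3 without msCol 16 and 59.5 with library sizes alone. In the thin upstream window chr4:13038001-13038200 the excess was 1.99 ± 0.37 (SE) in 28 of 36 families (p = 2e-05, same permutation test), and the epiRILs held a mean of 3.95 counts, msCol 12 held 1.87 and msCol 16 held 0. In the other 3 windows p was 0.108 to 0.804 (same permutation test), and the direction at chr4:13038401-13038600 and chr4:13038801-13039000 depended on the scaling or the msCol library.

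Relative to its mean, the FWA block varied less over the repeats than at its downstream edge. Among the 15 windows of the block with a mean of at least 20 counts, the coefficient of variation (CV) over the epiRILs ran from 14.9% to 55.2%. It was lowest at chr4:13038301-13038500, over the gene start and the first long repeat copy, and highest at chr4:13038751-13038950 in intron 2. Both windows were picked after their values had been seen, so their spreads are given as a description. In the repeat window the epiRILs held 321 to 611 normalised counts (median 467), the epiHybrids 307 to 562 (median 427), msCol 12 held 284 and msCol 16 held 439. In the intron 2 window the epiRILs held 2.99 to 131 (median 66.8), the epiHybrids 12.3 to 151 (median 55.7), msCol 12 held 33.6 and msCol 16 held 49.6. No line lacked sRNAs over the repeats, while some lines nearly lacked them in intron 2.

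The edge window that was not picked by its spread (chr4:13038801-13039000) had lower counts and a CV over the epiRILs of 64.6%. The epiRILs held 1.00 to 41.0 normalised counts (median 15.3) and the epiHybrids 3.16 to 27.6 (median 13.8), with 9.33 in msCol 12 and 13.1 in msCol 16. The SD of the epiRILs, 11.1, was 2.68 times the SD that counting alone would give, against 1.77 times in the epiHybrids. For the epiRILs this multiple was 3.19 in the repeat window, where counts were higher, and 4.42 in the intron 2 window. In the edge window the variance of the epiHybrids was 0.356 times that of the epiRILs (p = 0.00143, permutation of the labels within families). Over the whole block this ratio was 0.645 (p = 0.185, same test). It was 0.571 (p = 0.0573, same test) in the overlapping intron 2 window, where the choice by epiRIL spread favours a low ratio.

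**Figure D2:**
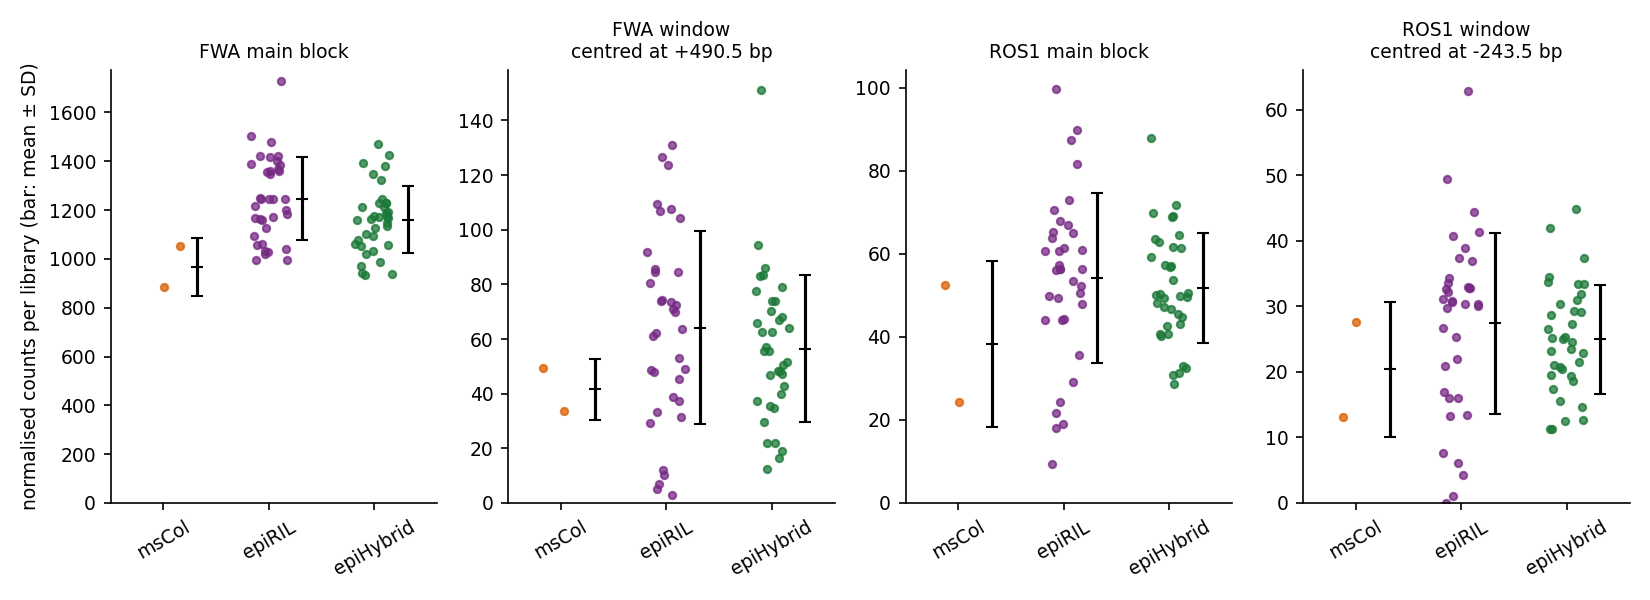
Normalised counts of every library in the FWA and ROS1 main blocks and in the most variable window of each, by group, with mean ± SD beside the points. In the FWA intron 2 window the epiRILs reach from 2.99 to 131 and in the ROS1 upstream window from 0 to 62.9, whereas no epiHybrid falls under 12.3 and 11.3 there. Both windows were picked for the highest spread of the epiRILs relative to their mean, which favours a wider epiRIL range.

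Single families show how widely the counts at the intron 2 edge ranged. By a fixed rule, an epiRIL was listed as low when it held less than 0.5 times the lower msCol library, and as high when it held more than 2 times the higher one. In the intron 2 window the low epiRILs were those of families 79, 340, 266, 426 and 368, with 3, 5, 6, 10 and 12 raw counts. Their epiHybrids held 12, 34, 24, 51 and 36 raw counts, each above its epiRIL. The 7 high epiRILs held 91 to 144 raw counts, with family 424 highest, and of their epiHybrids only that of family 503 was above its epiRIL, with 150 against 129. Because families were listed by extreme epiRIL values, epiHybrids nearer the middle follow in part from the choice, and a shift was not tested. The same 5 families were low in the downstream edge window, which shares 150 of its bases with the intron 2 window, and there their epiRILs held 1 to 3 raw counts and their epiHybrids 4 to 14.

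Edge counts of epiHybrids followed those of their own epiRILs. In the edge window chr4:13038801-13039000 the values of epiHybrids and their own epiRILs had a Pearson r of 0.65 (p = 1e-05, the smallest that these permutations can give) and a Spearman rho of 0.64 (p = 2e-05, permutation test) over 36 families. Without the 2 families farthest from the median epiRIL, r was 0.61. The slope was 0.39 ± 0.08 (SE) epiHybrid counts per epiRIL count. In the intron 2 window r was 0.60 (p = 3e-05, permutation test) and rho 0.58 (p = 0.00012), with r = 0.56 without the 2 farthest families and 0.49 without the 5 families with low epiRILs. The slope there was 0.45 ± 0.10 (SE).

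Over the whole block the relation within families had a lower r and rested on few lines, while the highest window kept it without them. The block gave r = 0.41 (p = 0.0119, permutation test) and rho = 0.38 (p = 0.0224), but r = 0.28 (p = 0.104, permutation test) without families 79 and 128, the farthest from the median, and r = 0.19 (p = 0.26) with library sizes alone. The highest window (chr4:13038401-13038600) gave r = 0.52 (p = 0.00112, permutation test) and rho = 0.49 (p = 0.00266), with r = 0.42 (p = 0.0144, permutation test) without families 79 and 389, its farthest, and r = 0.33 (p = 0.0517) with library sizes alone. Relations of this kind were computed for 15 intervals, blocks and windows, and their p-values are unadjusted. The difference in r between edge and block was not tested.

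**Figure D3:**
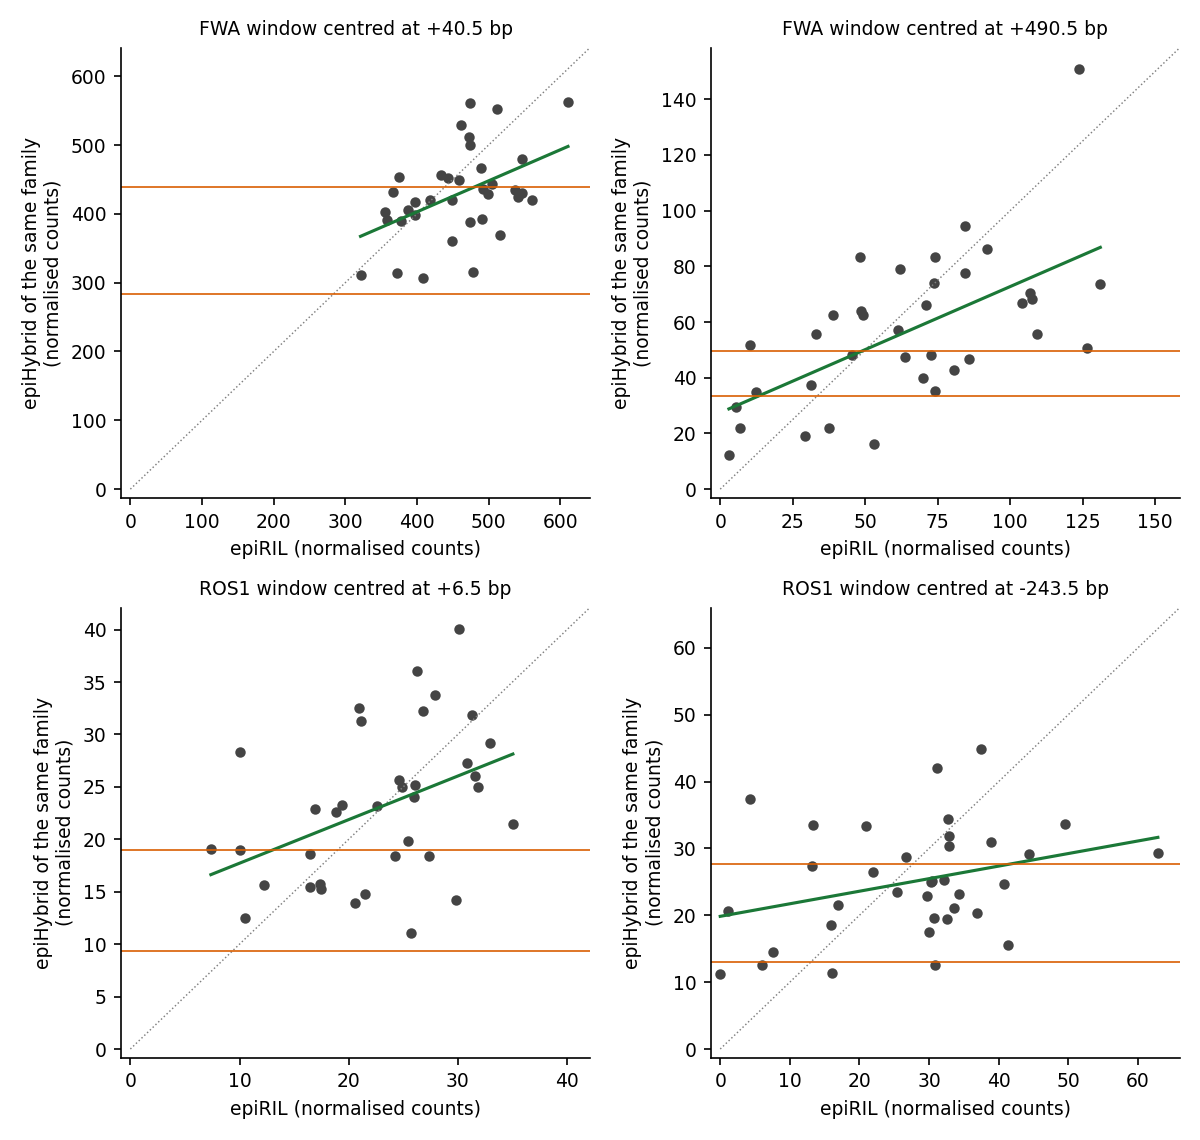
Normalised counts of each epiHybrid against its own epiRIL (36 families) in the least and the most variable window of FWA (top) and of ROS1 (bottom). Green lines are least-squares fits, dotted lines mark equal values and orange lines the 2 msCol libraries. The slope is 0.45 in the FWA intron 2 window and 0.19 in the ROS1 upstream window.

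Lines with little sRNA at the intron 2 edge had no less over the repeats. Across the 36 epiRILs the repeat window and the intron 2 window, which do not overlap, were inversely related, with r = -0.45 (p = 0.00539, permutation test) and rho = -0.41 (p = 0.0123). Adjusted over the 8 relations computed between windows, these p-values were 0.0216 and 0.0387. Without the 2 epiRILs farthest from the median of the repeat window r was -0.34. In the epiHybrids r was -0.30 (p = 0.0751, permutation test) and rho -0.41 (p = 0.0145). Both windows were picked after their values had been seen.

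At ROS1, sRNAs were sparse and concentrated just upstream of the gene. The main block ran from chr2:15314601 to chr2:15315150, over exon 1, which holds no coding bases, and the adjoining upstream DNA. It held 54.2% of the counts of the interval. Every sequence of 24 bases in it occurs at a single place in the genome. The highest window (chr2:15314801-15315000) had a mean of 50.6 raw counts, compared with 444.3 in the highest window of FWA. Along the rest of the interval the windows had a median of 0.689 counts, and 3 small blocks inside the gene (over exons 19 and 20, exon 5, and exon 4) had top windows with means of 2.18 to 3.14.

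Over the ROS1 main block the groups overlapped widely. The epiRIL libraries held 9.49 to 99.7 normalised counts (median 56.4), and the epiHybrid libraries 28.7 to 87.8 (median 50.0). msCol 12 held 24.3 and msCol 16 held 52.5, so that the maternal libraries stood as far apart as many epiRILs. The means were 54.2 ± 20.4 (SD, n = 36), 51.7 ± 13.3 (SD, n = 36) and 38.4 ± 19.9 (SD, n = 2).

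The differences between ROS1 group means stayed within this spread, except for an excess over MPV that 1 maternal library decided. The epiHybrids held 2.46 ± 3.19 (SE) counts fewer than their epiRILs, with 20 of 36 families lower (p = 0.44, sign-flip permutation test). The epiRILs exceeded msCol by 15.8 counts (p = 0.316, exact permutation test), by 1.72 without msCol 12 and by 29.9 without msCol 16. The epiHybrids exceeded the MPV by 5.45 ± 2.15 (SE) counts in 23 of 36 families (p = 0.0162, sign-flip permutation test, msCol mean treated as known). However, the difference was -1.60 counts without msCol 12 and 12.5 without msCol 16. At the gene level edgeR gave 0.02 on the log2 scale for epiHybrid against epiRIL (95% interval -0.11 to 0.15, adjusted p 0.919), 0.29 for epiRIL against msCol (-0.20 to 0.78, adjusted p 0.566) and 0.13 for epiHybrid against MPV (-0.14 to 0.40, adjusted p 0.701). Of 3 ROS1 windows tested by edgeR, 0 passed in any comparison, and 0 had an unadjusted p under 0.05. DESeq2 gave adjusted p-values of 0.934, 0.474 and 0.614 for the gene.

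In the ROS1 main block the epiRILs varied more than their epiHybrids did. The variance of the epiHybrids was 0.425 times that of the epiRILs in the main block (p = 0.0175, permutation of the labels within families) and 0.39 times in the whole interval (p = 0.00492, same test). In the top window the ratio was 0.401 (p = 0.0132, same test), with 7.38 to 96.1 counts in the epiRILs and 27.4 to 84.0 in the epiHybrids. The SD of the epiRILs there was 2.77 times the counting SD, and that of the epiHybrids 1.80 times. At chr2:15314601-15314800 the ratio was 0.948 (p = 0.867, same test). That window held about 2 counts, and its SDs were 1.02 and 0.96 times the counting SD in epiRILs and epiHybrids, so it could hardly show a difference. The ratio was 1.00 (p = 0.987, same test) in the window on the gene start (chr2:15314701-15314900). In the upstream window chr2:15314951-15315150 it was 0.363 (p = 0.00487, same test). These windows were picked for the lowest and the highest CV over the epiRILs. Such ratios are favoured by that choice, for which the p-values do not account. Variance ratios were tested for 15 intervals, blocks and windows of the loci, and the p-values are unadjusted.

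As at FWA, the spread relative to the mean was highest at an edge of the block, which here is the upstream edge. Among the 7 windows of the block with a mean of at least 20 counts the CV over the epiRILs ran from 31.6% at chr2:15314701-15314900, on the gene start, to 50.5% at chr2:15314951-15315150, upstream. Relative to the counting SD, the epiRIL SD was 2.64 times in the upstream window, 2.77 times in the top window and 1.51 times on the gene start. On the gene start the epiRILs held 7.38 to 35 normalised counts (median 24.4) and the epiHybrids 11.1 to 40.1 (median 23.0), with 9.33 in msCol 12 and 18.9 in msCol 16. In the upstream window the epiRILs held 0 to 62.9 (median 30.6) and the epiHybrids 11.3 to 44.9 (median 24.8), with 13.1 in msCol 12 and 27.7 in msCol 16. These windows too were picked after their values had been seen. Unlike at FWA, they were positively related, with r = 0.62 (p = 5e-05, permutation test) and rho = 0.51 (p = 0.00182) over the 36 epiRILs, and r = 0.57 without the 2 farthest. Their adjusted p-values over the 8 relations were 4e-04 and 0.0146. In the epiHybrids r was 0.34 (p = 0.0415, permutation test, adjusted 0.111).

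**Figure D4:**
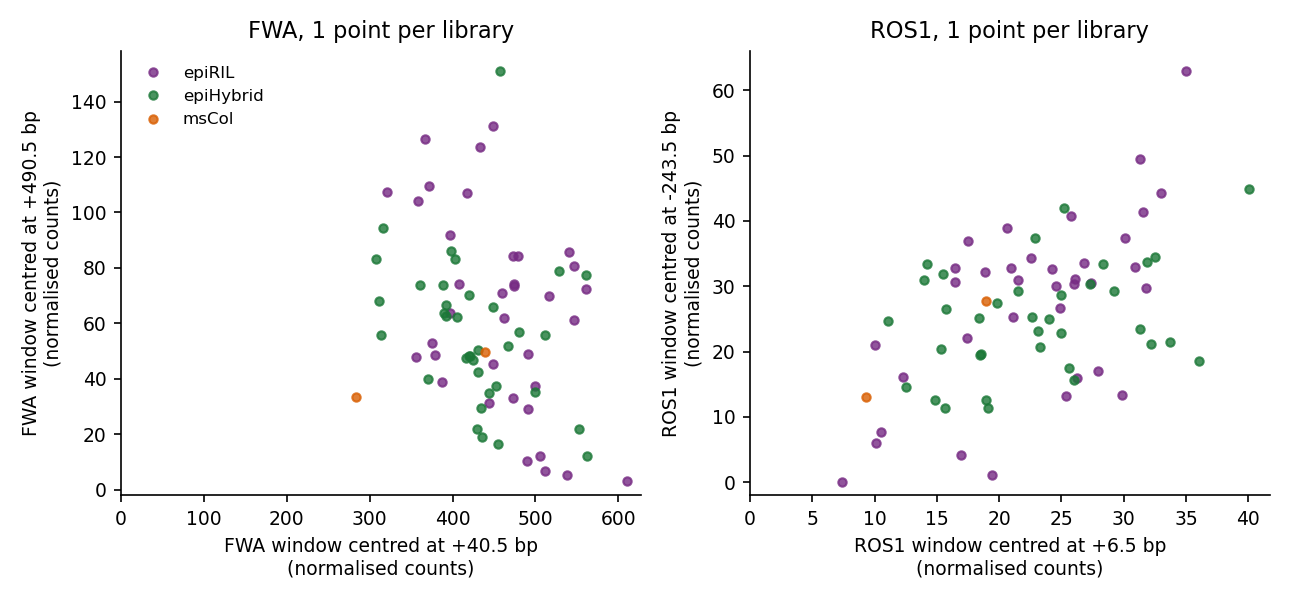
Normalised counts of the most variable window against the least variable window of FWA (left) and ROS1 (right), 1 point per library, coloured by group. At FWA the 5 epiRILs with the fewest intron 2 counts lie above the epiRIL median of the repeat window. Over all epiRILs r is -0.45 at FWA, while at ROS1 the windows are positively related (r = 0.62).

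The low lines at ROS1 were few. In the upstream window the epiRILs of families 340, 50, 128 and 579 were low by the fixed rule, with 0, 1, 4 and 6 raw counts, and that of family 469 was high with 70. The epiHybrids of the low families held 13, 24, 36 and 12 raw counts, and that of family 469 held 30. These families too were listed by extreme epiRIL values, so that epiHybrids nearer the middle follow in part from the choice. The upstream window was not always low together with the gene start, where the epiRIL of family 50 held 19.4 normalised counts, above both msCol libraries, and that of family 128 held 16.9. In the main block only the epiRIL of family 340 was low, with 9 raw counts against 38 in its epiHybrid. Family 340 was thus low at the edges of both loci. Across all 36 epiRILs, however, the FWA intron 2 window and the ROS1 upstream window gave r = 0.27 (p = 0.116, permutation test) and rho = 0.22 (p = 0.2), and the main blocks gave r = -0.13 (p = 0.46, permutation test).

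The likeness of epiHybrids to their epiRILs at ROS1 was moderate. In the main block r was 0.42 (p = 0.0108, permutation test) and rho 0.38 (p = 0.0236) over 36 families, with r = 0.39 without families 340 and 469. The slope was 0.27 ± 0.10 (SE). Without families 12 and 568 r was 0.47. In the upstream window r was 0.31 (p = 0.0652, permutation test) and the slope 0.19 ± 0.10 (SE).

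The relatives of ROS1 gave few sRNAs on average and no call. The 4 DNA glycosylase genes considered were ROS1 itself, DME, which acts in the central cell of the female gametophyte, DML2 and DML3. Relative to the length of the feature they had 10.6, 3.92, 4.12 and 1.82 normalised counts per kb, compared with 197.0 at FWA. Single libraries stood far above the rest. At DML2 the highest epiHybrid held 484 normalised counts (epiHybrid median 30.5), and at DML3 the highest epiRIL held 86.4 (epiRIL median 14.6). Of these 4 genes, 0 passed the test in any of the comparisons by edgeR, and 0 had an unadjusted p under 0.05, where 8.08%, 6.14% and 4.15% of all genes passed for epiHybrid against epiRIL, epiRIL against msCol and epiHybrid against MPV. Their median log2 differences were -0.00, 0.23 and 0.02, beside 0.00, -0.01 and -0.01 over all genes tested.

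FWA was also set beside other genes known for expression controlled by repeats, transposons or methylation, namely SDC, QQS, BNS, MEA, FIS2, PHE1, HDG3, HDG9, IBM1 and EPF2. Of these 11 genes, FWA included, 3 were higher in epiRILs than in msCol and 0 lower, where 3.23% of all genes were called higher and 2.92% lower, and 0 were called in the other comparisons. The 3 were FWA, SDC and HDG9. SDC, an F-box gene silenced through promoter repeats, was higher by 0.34 ± 0.11 (SE) on the log2 scale (edgeR adjusted p 0.036), with 663 to 882 normalised counts in the epiRILs, 643 in msCol 12 and 646 in msCol 16. HDG9, a homeodomain gene of the family of FWA, was higher by 0.73 ± 0.20 (SE, edgeR adjusted p 0.0127), with 519 to 1327 counts in the epiRILs, 643 in msCol 12 and 635 in msCol 16. It lies at chr5:5703139-5707637, on the chromosome with the Ler segment of msCol, and whether that segment reaches it was not tested. The SDC call was lost (edgeR adjusted p 0.0523 to 0.494) with library sizes alone, without the filter, in the CG and CHG tables and with either msCol library left out. The HDG9 call was lost (edgeR adjusted p 0.0869 to 0.334) over the gene body alone, in the CG and CHG tables and with either msCol library left out. The median log2 difference of the 11 genes was 0.34, beside -0.01 over all genes, and single genes ran from -0.11 in IBM1 to 1.02 in QQS (not called). The 3 called genes had means of 774 to 1207 raw counts, and the share over all genes was not matched for counts. Per kb of feature SDC had 196.7 normalised counts and BNS 198.6, close to FWA, while the CV over the epiRILs was 6.59% for SDC, 13.6% for FWA and 80.5% for QQS.

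The genes whose level was most like that of FWA over the 36 epiRILs were AT2G05210 (AtPOT1a), with a Spearman rho of 0.79, AT1G05035 with 0.78 and AT1G04313 with 0.78, among 27930 genes compared. The last of these overlap on chromosome 1 and share windows. For ROS1 they were AT4G24700 with 0.63, AT3G50780 with 0.62 and AT2G46590 (DAG2) with 0.57, among 27946 genes. These values are the highest of many and are given as a description. FWA and ROS1 themselves gave a rho of -0.18 at the gene level.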

How the data were processed

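Small RNA was measured in 74 libraries made from pooled rosettes (DNBSEQ libraries with molecular identifiers). The authors counted reads of all lengths with ShortStack (default parameters, version not given in the sources used here) against TAIR10, in windows of 200 bp at 50-bp steps with at least 10 cytosines of the context, and deposited the raw counts in a CG, a CHG and a CHH table. How multi-mapping reads and molecular identifiers were treated is not given in the sources used here. A read on a window border can be counted in neighbouring windows.

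The CHH counts as deposited were used at a step of 200 bp (non-overlapping windows), summed over the intervals, over blocks and over genes with 1000 bp on each side. All 2379342 CHH windows were read and 594835 were kept. The CG and CHG tables hold fewer windows. At a step of 200 bp they had 12 and 25 in the FWA interval, where the CHH table had 40. In the ROS1 interval they had 27 and 36, where it had 60. Chromosome lengths of the RefSeq TAIR10.1 assembly equalled the ends of the last windows. edgeR 4.0.16 quasi-likelihood tests (TMM factors, mean of at least 2 counts, Benjamini-Hochberg adjustment over all genes or windows, threshold 0.05) compared epiHybrids with epiRILs with family as a block, epiRILs with msCol, and epiHybrids with the MPV on the log scale. DESeq2 1.42.0 was an alternative. Sums were compared by 100000 sign flips over families or by exact permutation over libraries, and their MPV on the count scale treats the msCol mean as known. The fits were tested on simulated data.

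Family numbers pair an epiHybrid with its father. Over 6631 variable windows, the nearest epiRIL of an epiHybrid was its father in 34 of 36 families, and every correlation of a pair's deviations was at least 0.249. The libraries are single pools per line, so p-values measure the spread between lines. The genes, intervals and gene lists were chosen with earlier results of these data known. The named genes are FWA, ROS1, their blocks, called members of the gene lists, and the 3 genes with a mean of at least 10 counts and more than 1 Mb away whose level over the epiRILs had the highest Spearman rho with each. Windows picked after seeing values are marked as such. The alternatives were other scalings, filters, window phases and context tables, the gene body alone, no replicate block, log2 values, and leaving out families 12 and 568 or either msCol library. Counting error is the only error that the counting SD covers.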

Additional observations from a re-analysis of the deposited data

How the results depend on the processing

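Of 289 recomputed values for 37 results, 227 were counted as unchanged, with the same direction and the same side of the threshold. Counts had to stay within 1.5 times, and values with no test within 1 SD of the differences. The exception in direction was the ROS1 interval difference of epiRILs from msCol, which was -12.2 without msCol 12. Another 15 values changed sign and were set apart whether or not they crossed the threshold. The cause of the other changes was not tested.

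At FWA, the gene-level log2 difference of epiRILs from msCol (0.45, edgeR adjusted p 0.0347) was 0.44 (adjusted p 0.0827) in the CG table, 0.48 (0.130) in the CHG table, 0.41 (0.0573) without the filter, 0.39 (0.0682) with windows shifted by 100 bp, 0.42 (0.0516) without families 12 and 568, and 0.42 to 0.49 with either msCol library left out. The difference of epiHybrids from epiRILs with library sizes alone was -41.5 counts over the interval and -42.3 over the block. The excess over MPV was 24.6 and 25.1 counts with RLE factors and 140.7 and 139.9 with library sizes alone, and ran from 9.27 to 97.5 and from 11.9 to 95.4 when 1 msCol library was left out. The r of the block was 0.19 with library sizes alone and 0.28 without the 2 farthest families. A single FWA window was called for epiHybrid against epiRIL with RLE factors, and 1 without families 12 and 568, against 0 otherwise. Among single windows, the excess over MPV at chr4:13038401-13038600 (3.5) was -7.68 with RLE factors and ran from -27.1 to 34.1 when 1 msCol library was left out, and that at chr4:13038801-13039000 (-0.219) was 0.760 with library sizes alone and ran from -1.17 to 0.727.

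ROS1 differences changed sign around 0. The CG and CHG sums cover less DNA than the CHH sum, with 27 and 36 windows in place of 60. Their means were 77.1 and 35.8 raw counts, while the CHH main block alone had 52.8. Over the interval, epiHybrid minus epiRIL (-1.97 counts) was 0.127 in the CG table, 1.45 in the CHG table, 1.38 with library sizes alone and 0.0056 on the log2 scale. The excess over MPV (3.75 counts, p = 0.184, permutation test) was 6.98 in the CG table, 12.4 with library sizes alone and 0.094 on the log2 scale, each then past the threshold, and -0.669 in the CHG table. It ran from -8.08 to 15.6 when 1 msCol library was left out, each past the threshold with opposite signs, and that of the block from -1.60 to 12.5, with 4.19 (p = 0.0578, permutation test) for RLE factors. The epiRIL minus msCol difference (11.4) was -4.24 in the CHG table and ran from -12.2 to 35.1 when 1 msCol library was left out, that of the block from 1.72 to 29.9 and that of the gene from 0.0059 to 0.65 on the log2 scale. At the gene level, epiHybrid against MPV ran from -0.012 to 0.31 when 1 msCol library was left out, and epiRIL against msCol was -0.070 in the CHG table.

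The family block pairs each epiHybrid with its father. Without the block the ROS1 gene gave -0.016 in place of 0.021 on the log2 scale, and for epiHybrid against epiRIL 1790 genes were called in place of 2966 and 7801 windows in place of 14000. It changed no call at FWA or ROS1.

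Counts over all genes moved too. For epiHybrid against epiRIL, 1925 genes were called in the CG table, 1571 in the CHG table and 1198 over gene bodies alone. For epiHybrid against MPV (1523 genes and 1883 windows), 750, 560 and 431 genes were called in the same order, 488 to 656 genes without 1 msCol library, and 4280 windows with library sizes alone, 570 without the filter and 816 to 1116 without 1 msCol library. For epiRIL against msCol (2254 genes and 3350 windows), 1178 genes were called in the CHG table, 861 over gene bodies and 817 to 964 without 1 msCol library, and 1738 windows without the filter and 1537 to 1772 without 1 msCol library.

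The relations without the families with low epiRILs and with RLE factors, and the alternatives for single FWA windows, were chosen after seeing the data. Low counts limit the precision in the ROS1 windows and at both ends of the FWA block, and every comparison with msCol or MPV rests on 2 sibling libraries.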
